A study of Artemisia argyi with 3 samples.

Results

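A set of 91 unigenes of *Artemisia argyi* was above 3 FPKM in leaf and in root and at or under 1 FPKM in stem, out of 88,591 unigenes with a value in the expression table and out of 14,662 above 3 FPKM in leaf and root. FPKM, the unit deposited by the authors, counts sequenced fragments per kilobase of unigene and corrects for the number of mapped fragments in the library. Unigenes of cluster CL48 were left out of the set, although none of the 37 in the table met the thresholds. Leaves, roots and stems of mature plants were each pooled from 5 plants and sequenced as 1 library per tissue, so every difference given here compares single libraries, without a standard deviation or a test. The members were chosen by their FPKM in the 3 tissues, and these values are therefore a description. A value near 1 FPKM in stem is not an absence: only 10 of the 91 were listed at 0 in stem, 18 were above 0 and up to 0.5 FPKM, and 63 were above 0.5 FPKM. The members are accordingly called low in stem.

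A unigene is a sequence put together from the reads themselves, because no genome was used as a guide. Those whose identifier starts with CL are contigs of a cluster, a group of similar sequences that can stand for splice forms, for alleles or for close paralogs of a gene, and the others are singletons. Where a fragment matched more than 1 contig, RSEM, which estimates abundance, shared it out among them, so the value of a contig depends on its neighbours in the cluster. Leaf, root and stem are the vegetative organs of a flowering plant. The stem joins the other organs through continuous vascular tissue and shares epidermal and vascular cell types with them. The columns of the table were assigned to leaf, root and stem by their letters L, R and S, which the study uses for these organs. The table gives identifiers alone, so the functions of the members and the tissue labels could not be checked against marker genes. The 7 unigenes that the study cloned and paired with terpenoid enzymes were looked up, and none of them was a member. All 7 were at or above 5.75 FPKM in stem. The lowest of them was CL1159.Contig3, the reductoisomerase ArDXR of the plastid MEP pathway, with 5.75 FPKM in stem against 11.02 in leaf and 4.83 in root.

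The members were near the threshold in leaf and root. Their FPKM had a median of 4.51 in leaf, with a range from 3.05 to 60.3, a median of 4.09 in root, with a range from 3.02 to 47.1, and a median of 0.63 in stem, with a range from 0 to 1. Over the 14,662 unigenes above 3 FPKM in leaf and root the median leaf value was 14.4, the median root value 10.2 and the median stem value 14.8. Over all unigenes in the table the median was 0.82 in leaf and 0.86 in root and the upper quartile 3.41 and 2.70, so the medians of the members lay above the upper quartile of the table and below the medians of the 14,662. The smaller of the leaf and root values was between 3 and 4 FPKM for 55 members, between 4 and 5 for 22, between 5 and 10 for 13, and above 10 for 1. Among the 81 members above 0 in stem, the smaller of leaf and root was 3.24 to 29.5 times the stem value, with a median of 5.64. On the scale of FPKM + 1, all 91 exceeded their stem value by 2-fold or more in leaf and in root by construction, against 12.3% and 14.2% of all unigenes in the table.

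Ordered by the smaller of its leaf and root values, the first member was CL8033.Contig2, with 19.3 FPKM in leaf and 11.5 in root but 0.39 in stem. It was the sole member above 10 FPKM in both organs. The singleton Unigene10980 was higher in root, with 9.95 FPKM in leaf and 22.0 in root but 0.59 in stem. CL1543.Contig3 was nearly equal in leaf and root, with 9.37 and 9.14 FPKM, and was listed at 0 in stem. CL5604.Contig1 had 6.77 FPKM in leaf and 18.3 in root but 0.70 in stem, while Unigene9058 had the opposite balance, with 19.5 in leaf and 6.70 in root but 0.75 in stem. These 5 members thus lay on either side of an even balance between leaf and root.

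In the next members in this order the smaller of the leaf and root values was closer to the threshold of 3 FPKM. CL2545.Contig3 was at 6.89 FPKM in leaf and 6.57 in root but 0.65 in stem. CL683.Contig4 was at 8.44, 6.25 and 0.56 FPKM in the same order of tissues, and Unigene13320 was at 11.2, 6.21 and 1 FPKM. The last of these sat on the stem threshold itself. CL2886.Contig1, with 6.12 FPKM in leaf and 11.7 in root but 0.30 in stem, and CL7967.Contig1, with 6.11, 47.1 and 0.30, were the more root-weighted ones. Unigene20993 had 5.98 FPKM in leaf and 6.91 in root but 0.92 in stem, and CL1557.Contig4 had 6.18, 5.94 and 0.26.

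**Figure D1:**
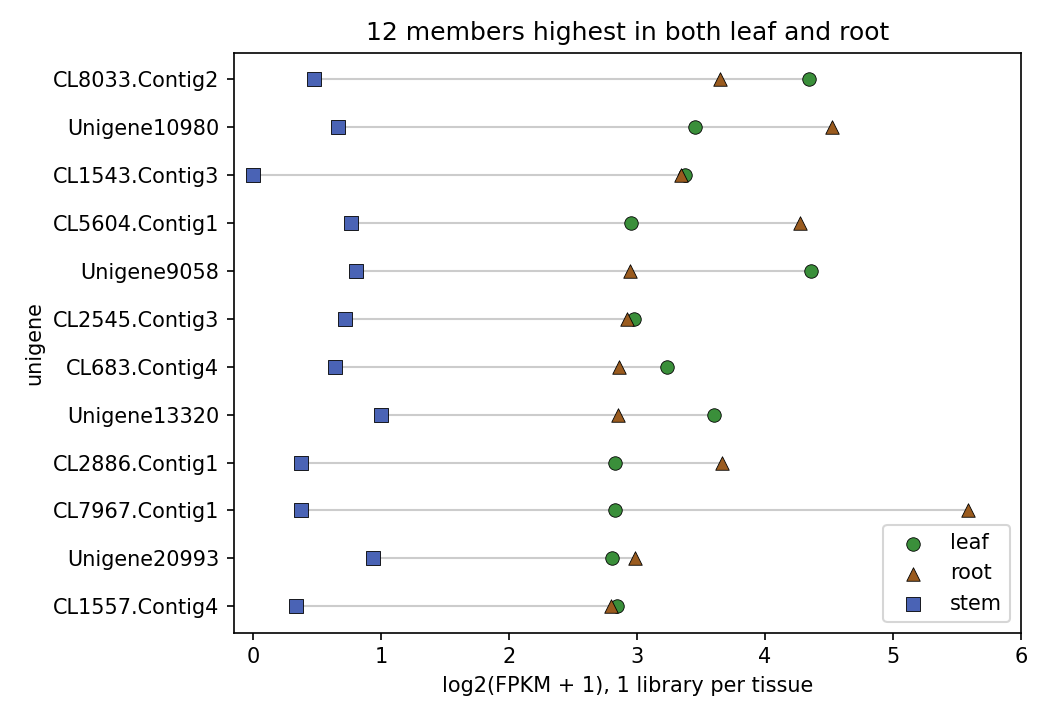
The 12 members with the highest smaller value of leaf and root, in log2(FPKM + 1) on the horizontal axis, with 1 point per tissue and unigene (circle leaf, triangle root, square stem). In all 12 the stem point lies at or below 1 FPKM, from 0 in CL1543.Contig3 to 1 in Unigene13320, and the leaf and root points lie at or above 5.94 FPKM.

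The 10 members listed at 0 in stem were 6 contigs and 4 singletons. After CL1543.Contig3, the first of them by the smaller of leaf and root was CL6701.Contig2, with 5.48 FPKM in leaf and 8.17 in root. The others were lower by this measure: CL3355.Contig3 had 4.34 and 4.14 FPKM in leaf and root, CL4689.Contig5 had 3.94 and 4.29, and CL3941.Contig2 had 4.38 and 3.62. Unigene1850 had 6.63 and 3.48 FPKM, Unigene1659 had 4.68 and 3.12, and Unigene12305 had 3.63 and 3.06. The remaining pair, Unigene10145 and CL10826.Contig3, had 3.38 and 3.15 FPKM in leaf and 3.16 and 3.53 in root. Except for CL1543.Contig3, they were chosen after their values were seen.

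The set ended without a gap at its thresholds. Just inside the stem threshold were CL3356.Contig5, with 7.23 FPKM in leaf and 4.09 in root but 1 in stem, Unigene13320, Unigene3058, with 4.62, 4.26 and 0.99, and Unigene32388, with 4.42, 3.21 and 0.99. Just outside it were CL6674.Contig5, with 3.70, 3.73 and 1.01 FPKM, Unigene2506, with 16.8, 3.50 and 1.01, Unigene5714, with 8.89, 8.43 and 1.01, and Unigene9845, with 5.27, 5.71 and 1.02. A further 113 unigenes above 3 FPKM in leaf and root were above 1 and up to 1.5 FPKM in stem. At the leaf and root threshold, CL7760.Contig3 was inside with 18.7, 3.02 and 0.64 FPKM in leaf, root and stem, as were Unigene24952, with 5.74, 3.03 and 0.35, and CL2007.Contig1, with 3.05, 9.11 and 0.61. CL9106.Contig1, with 5.35, 3 and 0, CL4566.Contig1, with 5.86, 2.98 and 0.90, and Unigene16647, with 2.98, 8.05 and 0.84, were just outside. The members with the smallest ratio to stem were Unigene32388, Unigene4740, CL6237.Contig1 and CL1752.Contig3, whose smaller value of leaf and root was 3.24, 3.46, 3.51 and 3.51 times the stem value.

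In the deposited FPKM, leaf and root were close to each other in most members. The log2 ratio of leaf to root, on the scale of FPKM + 1, had a median of 0.06, against 0.37 over the 14,662 unigenes above 3 FPKM in leaf and root and 0.02 over all unigenes in the table. Leaf was the higher tissue in 53 members, root in 37, and CL6010.Contig1 had 3.22 FPKM in each. In 52 of the 91 members, or 57.1%, leaf and root were within 1.5-fold of each other, against 42.1% of the 14,662. Members have lower FPKM than that set, and on this scale low values give smaller ratios. The part of expression level in the difference was not tested. Leaf exceeded root by 2-fold or more in 10 members, or 10.99%, against 20.2% of all unigenes and 25.02% of the 14,662. Root exceeded leaf by as much in 9 members, or 9.89%, against 18% of all unigenes and 10.7% of the 14,662. Division by median-ratio size factors, which moves a log2 ratio of leaf to root by -0.64, gave 6 members on the leaf side and 16 on the root side and changed the median of the members to -0.44, that of the 14,662 to -0.20 and that of all unigenes to 0. The even balance between leaf and root therefore holds for the deposited FPKM and not for that scaling. The share within 1.5-fold was not taken under that scaling. The median of the members was below that of the 14,662 in the deposited FPKM and under that scaling. The scaling moves all ratios of leaf to root in the same direction, so it could hardly change this order.

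The 4 members with the largest ratio of leaf to root had high FPKM in leaf and were near the threshold in root. CL1490.Contig5 had 60.3 FPKM in leaf and 3.29 in root but 0.86 in stem, a log2 ratio of leaf to root of 3.84. Unigene13763 had 30.7, 3.90 and 0.95 FPKM and a log2 ratio of 2.70. CL7760.Contig3 had a log2 ratio of 2.30, and CL3575.Contig11, with 21.3, 3.61 and 0.53 FPKM, one of 2.28. In the opposite direction CL3736.Contig1 had 3.27 FPKM in leaf and 36.9 in root but 0.82 in stem, a log2 ratio of -3.15. CL7967.Contig1 had a log2 ratio of -2.76, Unigene14626, with 3.39, 15.99 and 0.90 FPKM, one of -1.95, and Unigene18608, with 3.07, 9.95 and 0.60 FPKM, one of -1.43. These members were expressed mainly in 1 organ. In the other organ they were near the threshold of 3 FPKM, except for CL7967.Contig1, with 6.11 FPKM in leaf.

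**Figure D2:**
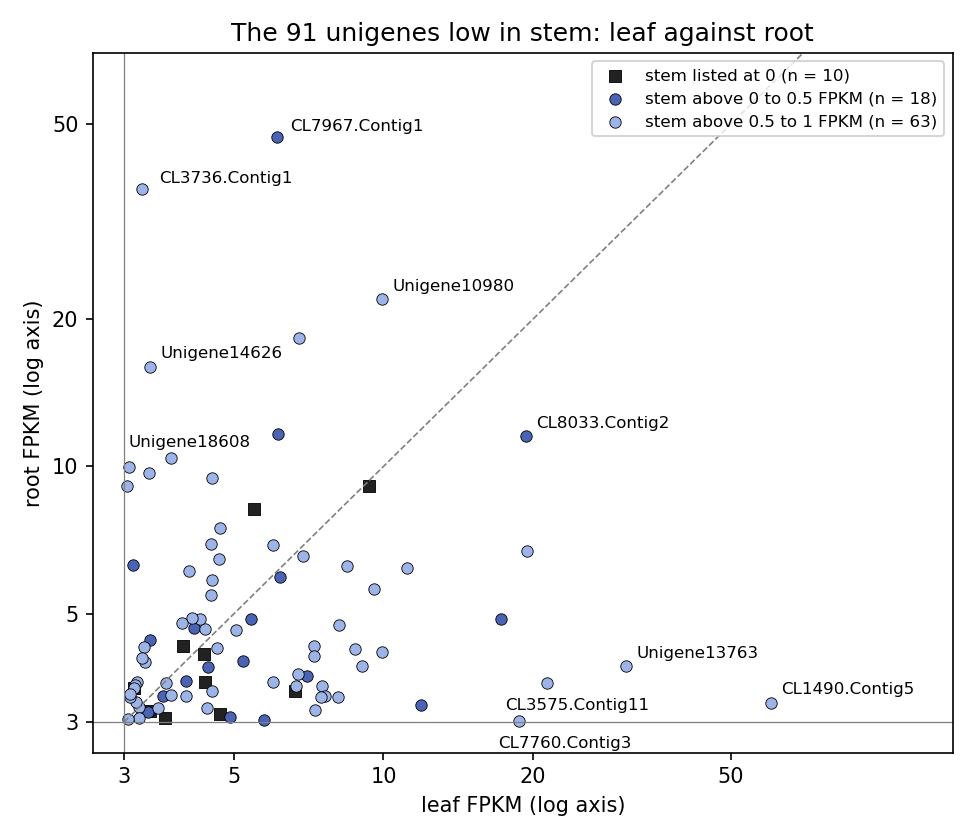
FPKM in leaf (horizontal, log axis) against FPKM in root (vertical, log axis) for the 91 members, 1 point each, with the thresholds of 3 FPKM as solid lines and equal values as a dashed line; squares are members listed at 0 in stem. Most points crowd near the lower corner, with 55 members between 3 and 4 FPKM in the lower of both tissues, and few, such as CL1490.Contig5 and CL7967.Contig1, lie far from the dashed line.

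The same thresholds were applied with the tissues exchanged. Of the 14,662 unigenes above 3 FPKM in leaf and root, 91 were at or under 1 FPKM in stem, or 0.621%. Of the 18,507 above 3 FPKM in leaf and stem, 1,182 were at or under 1 FPKM in root, or 6.39%, and of the 16,260 above 3 FPKM in root and stem, 1,035 were at or under 1 FPKM in leaf, or 6.37%. These counts are a description of the 3 libraries. The share low in stem was thus the smallest of the 3, and it stayed the smallest after TPM rescaling, with 0.947%, 6.19% and 6.76%, and after median-ratio scaling, with 0.965%, 4.14% and 7.43%. Where all 3 tissues exceeded 1 FPKM, which was so for 24,505 unigenes, stem was the lowest tissue in 19.1%, leaf in 25.3% and root in 55.4%. These last shares were taken on the deposited FPKM alone. Median-ratio scaling raises root against the other tissues, with a log2 ratio of root to stem moved by 0.62. The lowest tissue was not counted under that scaling.

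The share low in stem was the smallest in each band of expression up to 100 FPKM. With the smaller value of the expressing tissues between 3 and 5 FPKM, 77 of 4,142 unigenes, or 1.86%, were low in stem, against 14.4% low in root and 10.3% low in leaf in the other combinations. Between 5 and 10 FPKM the shares were 0.312%, 6.27% and 7.78%, and between 10 and 30 FPKM they were 0.0251%, 2.16% and 4.15%. Between 30 and 100 FPKM 0 of 1,751 unigenes were low in stem, whereas 29 of 2,254 were low in root and 34 of 2,048 low in leaf. Above 100 FPKM the numbers were 0 of 625, 1 of 721 and 2 of 759, which are too small to order the tissues.

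**Figure D3:**
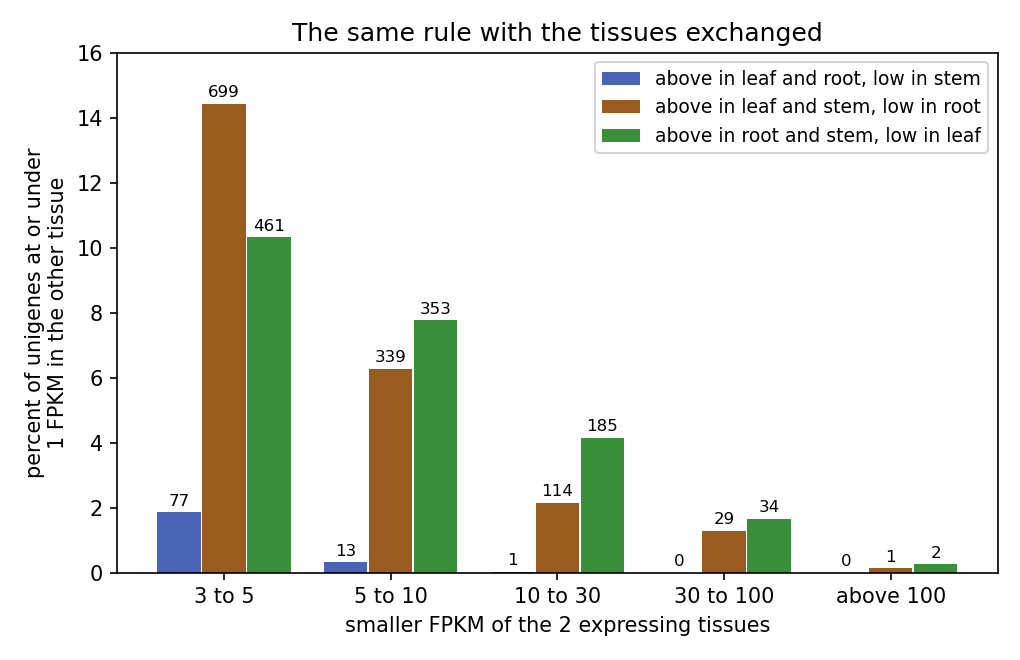
Percent of the unigenes above 3 FPKM in 2 tissues that were at or under 1 FPKM in the other one (vertical axis, from 0), by bands of the smaller FPKM of the expressing tissues; the number of unigenes stands above each bar. The bars for unigenes low in stem are the shortest, from 77 unigenes between 3 and 5 FPKM to 1 between 10 and 30 and 0 above.

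Stem had the smallest share at other thresholds for the tissue of low expression too. Of the unigenes above 3 FPKM in the other tissues, 0.0682% were listed at 0 in stem, 0.621% in root and 1.67% in leaf. At or under 2 FPKM were 2.24% in stem, 15.1% in root and 10.1% in leaf, and at or under 5 FPKM 12.8%, 40.0% and 22.7%. The unigenes low in root and low in leaf also reached higher expression in the other tissues. Their smaller FPKM had a median of 4.50 and 5.45 and a maximum of 210 and 128, against a median of 3.63 and a maximum of 11.5 for those low in stem.

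**Figure D4:**
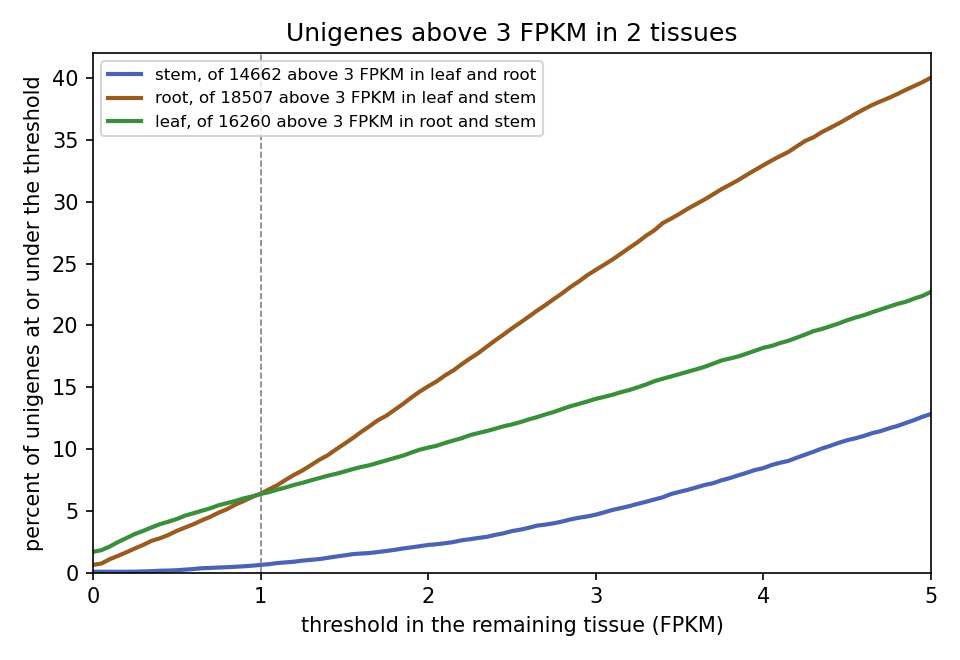
Percent of the unigenes above 3 FPKM in 2 tissues (vertical axis) whose FPKM in the remaining tissue was at or under the threshold on the horizontal axis, with 1 line per remaining tissue and the threshold of 1 FPKM dashed. The stem line is the lowest throughout and reaches 12.8% at 5 FPKM, where the leaf line reaches 22.7% and the root line 40.0%.

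Of the 91 members, 36 were singletons and 55 were contigs of 54 clusters. Singletons made up 39.6% of the members and 38.4% of the 14,662 unigenes above 3 FPKM in leaf and root, so that the share of members was 0.639% among singletons and 0.609% among contigs. Their values were alike too, with a median smaller value of leaf and root of 3.59 FPKM in singletons and 3.74 in contigs, and a median stem value of 0.64 and 0.61. Among contigs the share of members was 0.357% in clusters of 1 or 2 contigs, 0.554% in clusters of 3 to 5, 1.23% in clusters of 6 to 10 and 1.58% in clusters of more than 10. Larger clusters thus held members more often, with 6 members in the last class. With the tissues exchanged, the share low in root was 4.87% in clusters of 1 or 2 contigs and 11.2% in those of more than 10. The share low in leaf was 6.25% and 4.74% in these classes, so the rise was seen for stem and root and not for leaf.

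Of the 36 singleton members, 29 carried numbers up to 23,427, the range that holds 95.05% of the singletons above 3 FPKM in leaf and root. Unigene31980, Unigene32162, Unigene32262, Unigene32388 and Unigene32478 lay close together at higher numbers, in a stretch that holds 47 of the 5,632 singletons above 3 FPKM in leaf and root. In the range of numbers around them, from 29,285 to 35,140, the median singleton was listed at 0 in leaf and stem and had 0.995 FPKM in root. The stretch was chosen after the values were seen.

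A contig can be low in stem while its cluster is not. When all contigs of a cluster in the table were summed, 53 of the 55 member contigs belonged to a cluster above 1 FPKM in stem, and 29, or 52.7%, to a cluster above 10 FPKM, against 91.1% of the contigs above 3 FPKM in leaf and root. Clusters above 1 FPKM in stem held 100% of those contigs, to 3 significant digits. The exceptions, CL8033.Contig2 and CL7186.Contig1, were members by construction, since a contig cannot exceed its cluster. A cluster sum includes the contig itself, which the rule caps at 1 FPKM in stem for members alone. The shares of 52.7% and 91.1% are therefore not a like comparison. CL8033 summed to 20.1 FPKM in leaf and 14.5 in root but 0.90 in stem, and CL7186, with a single contig in the table, to 3.22, 3.06 and 0.72. Over the 54 member contigs that shared their cluster with another contig of the table, the member held a median of 30.9% of the cluster sum in leaf and 23.7% in root but 5.87% in stem. The rule holds a member at or under 1 FPKM in stem and above 3 FPKM elsewhere, so a smaller share in stem was built into the choice of members. With clusters and singletons as units, 48 met the rule, the 36 singletons and 12 clusters, and of these 12 only CL8033 and CL7186 held a member.

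The other contigs of these clusters were not used by the rule, and their values were compared after the values of the members were seen. Fragments are shared out within a cluster, so they are not independent of the members. In 53 clusters there was at least 1 other contig, and summed over these, stem was the lowest tissue in 30 clusters (56.6%), between leaf and root in 12 and the highest in 11. For the 8,911 contigs above 3 FPKM in leaf and root that were no members and had other contigs in their cluster, the others were lowest in stem in 19.2%, between in 42.8% and highest in 38.0%. In 13 of the 53 clusters, or 24.5%, the smaller of leaf and root was at least 2 times the stem sum of the other contigs, against 3.50% for the 8,911. The 53 are clusters counted once each, whereas the 8,911 are single contigs that can share a cluster. The comparison was not matched for expression level or cluster size. The clusters of the members thus ranged from those lower in stem than in leaf and root as a whole to those in which another contig carried the stem expression. The clusters described next were chosen after their values were seen, except for the 5 with the highest stem sums, CL10826, CL2146, CL1557, CL10701 and CL12530.

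Among the clusters whose other contigs were lowest in stem, CL1543 had the highest sums of these contigs in leaf and root. CL1543.Contig1 had 234 FPKM in leaf and 453 in root but 20.7 in stem, and CL1543.Contig2 had 235, 467 and 20.6, beside the 9.37, 9.14 and 0 FPKM of the member CL1543.Contig3. In CL7967 the other contigs summed to 160 FPKM in leaf and 228 in root but 24.9 in stem, but they differed among themselves. CL7967.Contig2 had 110, 3.20 and 4.54 FPKM, CL7967.Contig3 had 49.3, 223 and 2.79, and CL7967.Contig4 had 0, 1.56 and 17.6, so that leaf, root and stem each had a different leading contig. CL12530 summed to 376 FPKM in leaf and 435 in root but 143 in stem, and its contig with the most stem expression, CL12530.Contig2, had 150, 172 and 44.3, against 3.74, 10.4 and 0.78 for the member CL12530.Contig4. The pattern was also found at lower levels: CL3325.Contig1 had 42.8, 34.5 and 9.22 FPKM beside the 8.13, 4.75 and 0.91 of the member CL3325.Contig2, and CL7501.Contig2 had 4.20, 3.55 and 1.25 beside the 4.51, 9.48 and 0.56 of CL7501.Contig1.

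In other clusters stem was the highest tissue. CL10826 summed to 441 FPKM in leaf and 362 in root, and to 1,018 in stem, nearly all of it from CL10826.Contig4, with 436, 351 and 1,015, whereas the member CL10826.Contig3 had 3.15, 3.53 and 0. The contigs with the most stem expression in the next clusters in this order were CL2146.Contig2, with 100.5 FPKM in leaf and 223 in root against 572 in stem, CL1557.Contig6, with 23.7, 128 and 197, and CL10701.Contig9, with 73.2, 105 and 191. The members of these clusters held 0.59 FPKM in stem in CL2146.Contig6, 0.26 in CL1557.Contig4 and 0.42 in CL10701.Contig1. In CL6701 the member CL6701.Contig2 had 5.48 FPKM in leaf and 8.17 in root but 0 in stem, and CL6701.Contig1, the other contig, had 4.99, 16.6 and 56.0. In CL3355, 4 other contigs summed to 15.6 FPKM in leaf and 12.6 in root against 37.6 in stem, beside the member CL3355.Contig3 at 4.34, 4.14 and 0.

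CL6542 was the sole cluster with 2 members. CL6542.Contig2 had 4.50 FPKM in leaf and 6.95 in root but 0.77 in stem, and CL6542.Contig5 had 3.93, 4.78 and 0.86. Its 4 other contigs summed to 3.57 FPKM in leaf and 11.2 in root against 16.7 in stem, so these contigs had the opposite order of leaf and stem. CL683 held 4 contigs, with CL683.Contig1 at 0.94, 6.03 and 1.94 FPKM, CL683.Contig2 at 10.6, 9 and 8.06 FPKM and CL683.Contig3 at 9.21, 6.8 and 9.96, whereas CL683.Contig4 had 0.56 in stem and 8.44 in leaf. For clusters of this kind, a lower use of 1 contig in stem and a different sharing out of fragments by the estimation cannot be told apart in the deposited values.

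**Figure D5:**
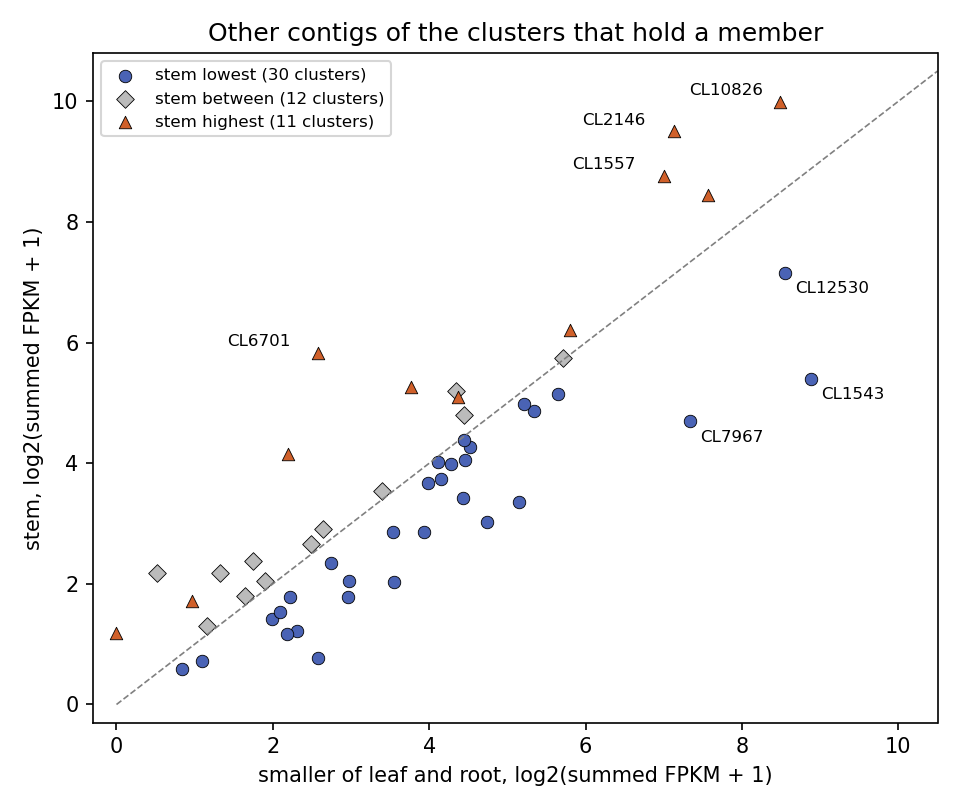
Summed FPKM of the other contigs in the 53 clusters that hold a member and at least 1 other contig, as log2(sum + 1), with the smaller of leaf and root on the horizontal axis, stem on the vertical axis and equal values dashed; 1 point per cluster. CL1543, CL7967 and CL12530 lie well below the dashed line, the other 27 clusters in which stem is lowest lie below it at distances down to that of CL683, at 1.04 times the stem sum, and CL10826, CL2146, CL1557 and CL6701 lie above it.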

How the data were processed

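RNA of leaf, root and stem was sequenced as 1 library per tissue. The authors assembled the reads with Trinity 2.06 and TGICL 2.06, aligned them back to the assembly with Bowtie2 2.2.5 and used RSEM 1.2.12 to estimate abundance. The deposited values are FPKM, written to 2 decimals, which sum to 745,319 for leaf, 684,729 for root and 732,443 for stem. Fragment counts and unigene lengths were not used, so no depth can be given for a single value, and values near 0 to 3 FPKM can rest on few fragments. FPKM also depends on the other transcripts in a library.

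Members were found by the thresholds of 3 and 1 FPKM. Cluster sums add the FPKM of all contigs with a shared CL number. Ratios were taken on the scale of FPKM + 1, with 2-fold as the threshold. Alternatives were other thresholds, other pseudocounts, TPM (each library rescaled to a sum of 1,000,000), median-ratio size factors and cluster sums. The members and lists were chosen with earlier results of these data known. The unigenes named are the 12 highest members, the extremes of the ratios, those nearest the thresholds, the contigs with the most stem expression in the 5 clusters with the highest stem sums, and the 7 cloned unigenes. Others were chosen after their values were seen, among them those listed at 0 in stem and the contigs of single clusters. No sequence is given, since none was among the files used here. The work was done in Python 3.11.15 with pandas 2.3.3, numpy 2.4.6, matplotlib 3.10.9 and scipy 1.17.1. Only the rule and the 2-fold split of leaf against root were tried on simulated data, with planted members away from the thresholds.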

Additional observations from a re-analysis of the deposited data

How the results depend on the processing

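The number of members depended on every threshold and scaling tried. It was 316 above 2 FPKM in leaf and root, 14 above 5 FPKM and 1 above 10 FPKM. It was 10 with stem listed at 0, 28 at or under 0.5 FPKM in stem and 328 at or under 2 FPKM. TPM gave 171 members, which held 57 of the 91 (62.6%), and median-ratio scaling gave 152, which held 68 (74.7%). Both kept the cutoffs of 3 and 1 on the rescaled values. The FPKM sums of the libraries were all below 1,000,000, so TPM raised every value. Its cutoffs thus stood for lower FPKM in all tissues, and the change in number does not come from the scaling between libraries alone. Summed clusters gave 48. Keeping cluster CL48 left the number at 91. Of the 55 member contigs, 53 belonged to a cluster with a stem sum above 1 FPKM. With the cutoff for this sum at 2 FPKM the number was 47, and at 0.5 FPKM it was 55. It was 49 when the highest other contig of the cluster had to exceed 1 FPKM in stem. For the split of leaf against root, median-ratio scaling gave 6 members at least 2-fold higher in leaf and 16 in root. Above 10 FPKM in leaf and root, where 1 member was left, it gave 0 and 0. The other pseudocounts and TPM gave 9 to 15 in leaf and 10 to 11 in root. The share low in stem was 0.0157% above 10 FPKM, 0.0682% listed at 0, 0.947% with TPM and 0.965% with median-ratio scaling. The share low in root was 1.74%, 0.621%, 6.19% and 4.14% in the same order, and the share low in leaf 3.04%, 1.67%, 6.76% and 7.43%, so stem had the smallest share under all 4. No replicate could be left out, and no paired analysis was possible because each tissue has 1 library.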
